A study of Homo sapiens with 3 samples.

Results

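Cholesterol and fatty acid synthesis was described through 8 genes, namely HMGCS1, SQLE, INSIG1, IDI1, SREBF1, SREBF2, FASN and SCD, which were chosen by name, with earlier results of these data known. All 8 were found among the 16463 genes listed for AsPC-1, a pancreatic cancer cell line, each with at least 935 reads in every library. The study asked which genes depend on LINC00941, a long intergenic non-coding RNA, and total RNA was sequenced from 3 cultures of AsPC-1, labelled wild type, with 1 library per condition. One culture received a non-targeting control siRNA (siNC), and the others received 1 of 2 siRNAs against LINC00941, si#1 or si#2. All 3 were transfected at 200 nM and harvested after 24 h. The comparisons concern 1 cell line and 1 time point, and because bulk RNA was sequenced, fewer cells expressing a gene and less RNA per cell cannot be told apart.

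Mammalian cells make cholesterol from acetyl-CoA through mevalonate, isoprenoids and squalene, and make fatty acids from the same precursor through malonyl-CoA. Both routes are switched on by the sterol regulatory element-binding proteins, membrane-bound transcription factors encoded by SREBF1 and SREBF2. When sterols are scarce, the escort protein SCAP carries these factors from the endoplasmic reticulum to the Golgi, where the proteases encoded by MBTPS1 and MBTPS2 release their active part. When sterols are plentiful, the proteins encoded by INSIG1 and INSIG2 hold the complex back, and INSIG1 is itself a target of the pathway.

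The sterol regulatory element, the short DNA sequence bound by these factors, was searched for in the promoters, because the members share this control. The members were chosen as genes of this pathway, so matches can be present whatever the siRNAs did. The part of the matches in the fold changes was not tested. RefSeq promoter windows on GRCh38.p14, from 250 bases before to 50 bases after an annotated start, were matched for 6 of the 8 members, in 9 windows. SQLE and FASN had no window, so their promoters were not searched. The letters CACNCCAC were searched on both strands and were present in 5.87% of the 35116 windows of all genes. They occurred in 4 of the 9 windows, 1 each for SREBF2, INSIG1, IDI1 and SCD. The 30 bases around each match follow, read on the strand of the match, with the matched letters in capitals.

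SREBF2, chr22:41832962-41832991, plus strand: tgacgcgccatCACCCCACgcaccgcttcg

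INSIG1, chr7:155297659-155297688, minus strand: tgacgtgcgcaCACGCCACcgccggcccgc

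IDI1, chr10:1048983-1049012, plus strand: cagcgccagtcCACGCCACatcgcccggcc

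SCD, chr10:100347108-100347137, minus strand: gacaccgacacCACACCACccggcctctgc

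The match in SREBF2 began at position -132 from the annotated start. It was the 1 match that also fulfilled the longer form TCACNCCAC, which contains the shorter one and was present in 1.13% of all windows. The matches in INSIG1, IDI1 and SCD began at positions -208, -115 and -114. The full windows of INSIG1 and SREBF2, the members with the largest decrease, and of SREBF1, the member that was higher with both siRNAs, are given below on the strand of the gene. Capitals mark the sterol regulatory element, CACGTG (the E-box) and CCAAT (bound by NF-Y, a factor that acts together with the sterol factors), on either strand.

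INSIG1, chr7:155297628-155297927, plus strand: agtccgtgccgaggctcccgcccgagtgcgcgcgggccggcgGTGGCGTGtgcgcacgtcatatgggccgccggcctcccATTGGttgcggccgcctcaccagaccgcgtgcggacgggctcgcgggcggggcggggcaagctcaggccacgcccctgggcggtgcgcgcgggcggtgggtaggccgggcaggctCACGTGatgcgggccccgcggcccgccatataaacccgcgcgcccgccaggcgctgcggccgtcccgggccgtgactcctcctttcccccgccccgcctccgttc

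SREBF2, chr22:41832855-41833154, plus strand: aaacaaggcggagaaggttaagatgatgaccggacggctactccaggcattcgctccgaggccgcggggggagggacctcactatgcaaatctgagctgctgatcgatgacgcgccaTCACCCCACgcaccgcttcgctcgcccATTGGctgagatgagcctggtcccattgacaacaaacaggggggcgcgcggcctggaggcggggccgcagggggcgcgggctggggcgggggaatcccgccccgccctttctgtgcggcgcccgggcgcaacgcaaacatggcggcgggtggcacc

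SREBF1, chr17:17836937-17837236, minus strand: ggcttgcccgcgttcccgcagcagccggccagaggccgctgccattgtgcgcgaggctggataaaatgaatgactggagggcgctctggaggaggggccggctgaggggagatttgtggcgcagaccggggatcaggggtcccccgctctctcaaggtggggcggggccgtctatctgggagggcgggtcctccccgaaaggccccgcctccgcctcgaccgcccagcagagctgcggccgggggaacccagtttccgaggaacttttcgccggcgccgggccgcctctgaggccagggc

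CCAAT was present in 34.6% and CACGTG in 7.26% of all windows. Of the 6 members with a window, 5 had a CCAAT in at least 1 window, SREBF1 being the exception, and 1 had CACGTG, which was INSIG1. The Sp1 box GGGCGG, left in lower case, was present in all 6 members and in 45.0% of all windows. The member counts are per gene over all its windows, whereas the percentages are shares of single windows. They therefore cannot be set directly against each other. All of these matches describe letters in 1 stretch of reference sequence. SREBF1 has 1 window, so its lack of CACNCCAC, CACGTG and CCAAT concerns that window alone, and any other start of the gene was not searched. HMGCS1 has 2 windows and IDI1 has 3, and of these 1 window of IDI1 held CACNCCAC.

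The reads assigned to the listed genes summed to 88690997 in siNC, 92510692 in the si#1 library and 90867405 in the si#2 library. In siNC, si#1 and si#2, LINC00941 had 1551, 214 and 273 reads, so the target was lower in both libraries labelled with its siRNAs. Of 10 markers of pancreatic ductal epithelium, 9 were listed, and their summed level was 9458, 7354 and 11189 TPM in siNC, si#1 and si#2, most of it from the keratin genes KRT8, KRT18 and KRT19. TPM, a transcript level corrected for length and depth, was computed by the authors. On the log2 scale, KRT8 differed from siNC by -0.50 (si#1) and 0.30 (si#2) and KRT7 by 0.94 with each, and MUC1, a mucin gene, fell with both (-1.73 and -1.55). The part of these markers in the results was not tested. Of 14 markers of fibroblasts, leukocytes, endothelium, acinar and islet cells, 3 were listed. Their summed level was 26.0, 24.4 and 21.01 TPM in siNC, si#1 and si#2, nearly all of it from the lysosomal gene CD68. In reads, CD68 had 2663, 2819 and 2503, and its normalized log2 fold changes were 0.03 (si#1) and -0.09 (si#2). The collagen gene COL1A1, the leukocyte gene PTPRC and the insulin gene INS were among those with no value here. Of 6 hepatocyte markers, SERPINA1 alone was listed, with at most 39 reads in any library.

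In siNC the members spanned 5.34 to 37.1 TPM. IDI1 and SQLE each reached 37.1 TPM and SCD 34.4 TPM, followed by HMGCS1 with 21.5, INSIG1 with 17.7, FASN with 14.2, SREBF1 with 9.44 and SREBF2 with 5.34 TPM. The summed level of the 8 was 177, 129 and 118 TPM in siNC, si#1 and si#2, and their summed reads were 46080, 37824 and 36319. Raw TPM ratios to siNC lay lower than fold changes from quantile-normalized read counts over the listed genes in general. The median offset on the log2 scale was -0.14 (si#1) and -0.22 (si#2), so the TPM sums show a larger decrease than the reads. The order differed between libraries. SQLE stood first with both siRNAs, at 34.4 and 29.5 TPM, and INSIG1, above FASN and SREBF1 in siNC, was below both with si#1 and si#2. With 1 library per condition, there is no spread between replicates against which neighbors in this order could be judged.

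**Figure D1:**
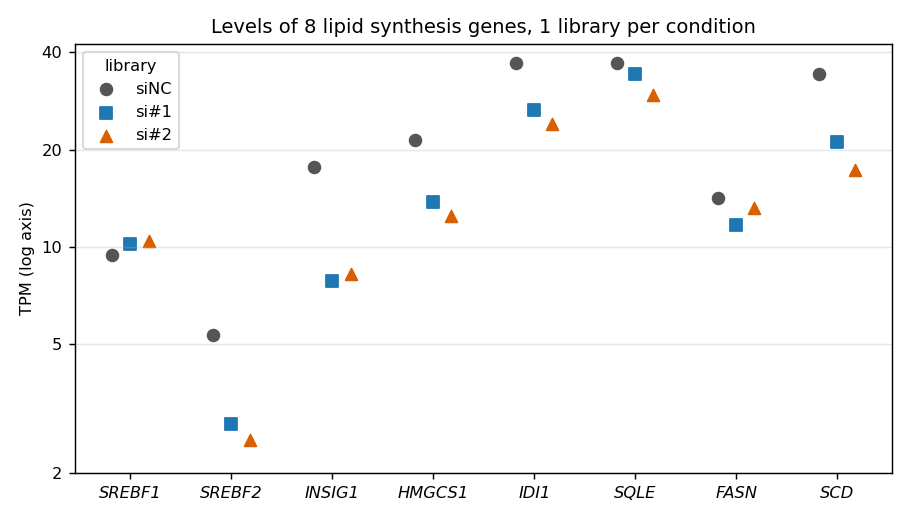
Levels of the 8 members in TPM (vertical log axis), with 1 point per library for siNC, si#1 and si#2 and no error bars because each condition had 1 library. The siNC point of INSIG1 (17.7 TPM) lies above those of si#1 (7.86 TPM) and si#2 (8.22 TPM), whereas the 3 points of SREBF1 lie between 9.44 and 10.5 TPM. TPM ratios to siNC lie lower than fold changes from normalized read counts, by a median of -0.14 (si#1) and -0.22 (si#2) on the log2 scale.

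Compared with siNC, 5 of the 8 members, INSIG1, SREBF2, SCD, HMGCS1 and IDI1, were lower with both siRNAs, SREBF1 was higher with both, and SQLE and FASN stayed within a log2 fold change of 0.15 in either direction. Fold changes were taken on log2(read count + 1) after quantile normalization over all listed genes, with a call at a log2 fold change of 1 or more in either direction, which is 2-fold. By that threshold, INSIG1 fell with si#1, and this was the 1 call among the members. The count was 1 of 8 with si#1, where 12.0% of all listed genes were called, and 0 of 8 with si#2, where 12.7% were called. With both siRNAs in the same direction, 0 of 8 members and 6.04% of all genes passed. Genes with few reads pass such a threshold more often. Among the 8708 deeply covered genes (mean read count of 1000 or more), to which all 8 members belong, the shares were 3.79%, 4.58% and 2.35%. At a 1.5-fold threshold, 2 of 8 members passed with si#1, 3 with si#2 and 2 (INSIG1 and SREBF2, both lower) with both. Beside this, 26.7%, 29.9% and 16.2% of all listed genes passed. Of the 8708 deeply covered genes, 551 were lower and 360 higher at this threshold with both siRNAs. The median log2 fold change of the members was -0.40 with si#1 and -0.48 with si#2, beside 0.03 and 0.02 over all listed genes. No difference here has a replicate check, and both siRNAs were set against the same siNC library. The 95% intervals given with each fold change (exact, Clopper-Pearson, for the ratio of 2 counts) cover counting error alone. They lay below siNC with both siRNAs in 5 of 8 members, against 30.4% of the deeply covered genes, and above it in 1 of 8, against 39.8%.

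**Figure D2:**
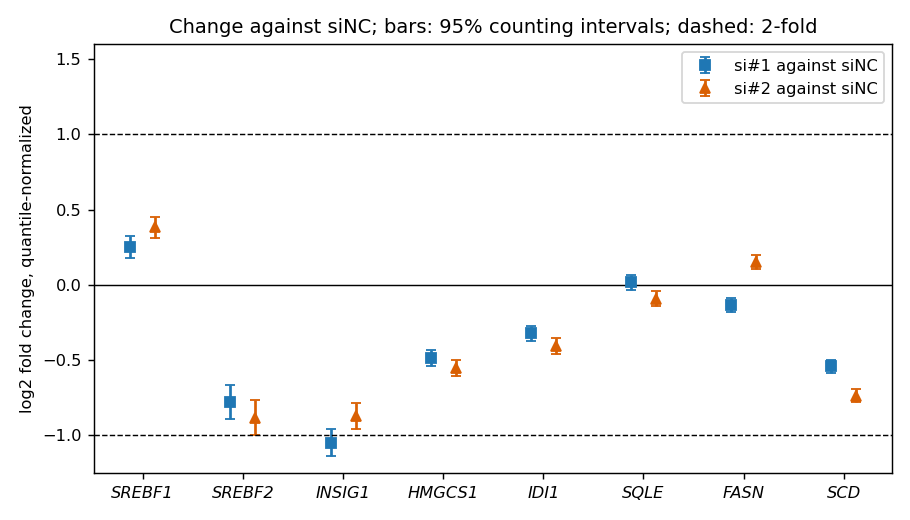
Log2 fold change of each member against siNC (vertical axis, quantile-normalized read counts) for si#1 (squares) and si#2 (triangles), with 95% counting intervals as bars and dashed lines at 2-fold. INSIG1 with si#1 (-1.05) is the 1 value past the lower dashed line, and both values of SREBF1 (0.25 and 0.38) lie above 0.

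The genes that control the pathway differed among themselves. INSIG1, which encodes the sterol-sensing retention protein, lies on chromosome 7 at 155297878 to 155310235 (RefSeq, GRCh38.p14). In siNC, si#1 and si#2 it had 3168, 1581 and 1722 reads. Both siRNA libraries were thus near each other and far from siNC, with log2 fold changes of -1.05 (95% interval -1.14 to -0.96) and -0.87 (-0.96 to -0.79). Of the deeply covered genes, 2.51% were as low or lower with si#1 and 5.00% with si#2.

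SREBF2, whose product mainly drives cholesterol synthesis and uptake, lies on chromosome 22 at 41833105 to 41907305. Its read counts in siNC, si#1 and si#2 were 1694, 1019 and 935. The log2 fold changes were -0.78 (-0.89 to -0.67) and -0.88 (-1.001 to -0.77), under the threshold with each siRNA, and the intervals of the 2 siRNAs overlapped. SREBF1, whose product mainly drives fatty acid synthesis, lies on chromosome 17 at 17811334 to 17836986. Its counts were 2778, 3397 and 3585 reads, or log2 fold changes of 0.25 (0.18 to 0.32) and 0.38 (0.31 to 0.45). The 2 genes for the transcription factors therefore stood on opposite sides of siNC in both libraries. The ratio of SREBF1 to SREBF2 in TPM was 1.77, 3.59 and 4.12 in siNC, si#1 and si#2. SREBF1 was close to siNC (0.02 and 0.05) after a trend with transcript length and GC content was removed, whereas SREBF2 was then at -0.90 and -1.08. This trend held 9.11% of the variance of all fold changes with si#1 and 16.4% with si#2, and its part in the values of single genes was not tested.

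Of 13 genes for the sterol factors, their escort, retention and cleavage, and the sterol-regulated degradation of their partners, all were listed. MBTPS2, which encodes the protease that makes the second, intramembrane cut, fell with both siRNAs. The 3 libraries, in the order siNC, si#1, si#2, held 2156, 921 and 841 of its reads, for log2 fold changes of -1.27 (-1.38 to -1.16) and -1.38 (-1.49 to -1.26). It was the 1 gene of this list past 2-fold with both, and none rose, where 3.51% of all genes fell and 2.53% rose with both. On quantile-normalized log2(TPM + 1), MBTPS2 was at -0.997 with si#1, just under 2-fold. MBTPS1, which encodes the protease of the first cut, was higher instead, at 0.76 and 0.30, so that the ratio of MBTPS1 to MBTPS2 in TPM was 3.65, 14.7 and 11.2 in siNC, si#1 and si#2. INSIG2, the second retention gene, had 3755, 2478 and 2473 reads in siNC, si#1 and si#2, with log2 fold changes of -0.63 and -0.59. SYVN1, which encodes a ubiquitin ligase of the endoplasmic reticulum, fell with si#1 (-1.07) and was at -0.71 with si#2. SCAP was at 0.21 and 0.24. The 13 genes had a median of -0.25 for si#1 and -0.14 for si#2.

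Of the 3 members that encode enzymes of cholesterol synthesis, HMGCS1 and IDI1 were lower with both siRNAs and SQLE was near siNC. HMGCS1 makes HMG-CoA, an early intermediate of the route, and lies on chromosome 5 at 43287470 to 43313412. It had 6905, 5022 and 4656 reads in siNC, si#1 and si#2, or log2 fold changes of -0.49 (-0.54 to -0.43) and -0.55 (-0.60 to -0.50). With the trend in length and GC content removed, the values were -0.31 and -0.24. IDI1, which isomerizes isopentenyl diphosphate, lies on chromosome 10 at 1039152 to 1056704 and had 6723, 5471 and 5040 reads in siNC, si#1 and si#2. Its log2 fold changes were -0.32 (-0.38 to -0.27) and -0.41 (-0.46 to -0.36), and -0.25 and -0.19 after the same removal. For each of these enzymes the siRNA libraries lay within 0.09 of each other on the log2 scale and below siNC.

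SQLE, the epoxidase that commits squalene to sterols, lies on chromosome 8 at 124998505 to 125022283. Its reads numbered 6652, 6954 and 6143 in siNC, si#1 and si#2. The log2 fold changes were 0.02 (-0.03 to 0.06) and -0.09 (-0.14 to -0.04). With si#1 the difference from siNC was not detectable at this depth, and under TMM scaling, the TPM-based values and the removed trend it lay just below 0 in place of just above.

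The other enzymes of the route did not move as 1 group. Of 22 listed enzymes of cholesterol synthesis, HMGCS1, IDI1 and SQLE included, none passed 2-fold with either siRNA. The shares with si#1 and si#2 were 12.0% and 12.7% of all listed genes, and 3.79% and 4.58% of the deeply covered genes. Both counting intervals lay below siNC for 6 of the 22 enzymes and above it for 9, beside 22.7% and 27.7% of all listed genes. Since most of these enzymes were deeply covered, 30.4% and 39.8% of the deeply covered genes stand beside them too. Among the steps up to squalene, MVD, the decarboxylase that makes isopentenyl diphosphate, was at 0.51 and 0.72, the kinase gene PMVK at 0.36 and 0.39, and FDFT1, squalene synthase, at -0.08 and -0.16. MVD and IDI1, neighbors in the route, thus lay on opposite sides of siNC with both siRNAs.

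After squalene, TM7SF2, a sterol reductase, was at 0.75 and 0.67, and EBP, a sterol isomerase, at 0.50 and 0.58, whereas the desaturase gene SC5D was at -0.35 and -0.80. The median of the steps up to squalene was 0.06 with si#1 and 0.03 with si#2, and that of the sterol steps was 0.10 and 0.09, near that of all listed genes. Leaving out HMGCS1, IDI1 and SQLE, the median of the remaining 19 enzymes was 0.13 with each siRNA.

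**Figure D3:**
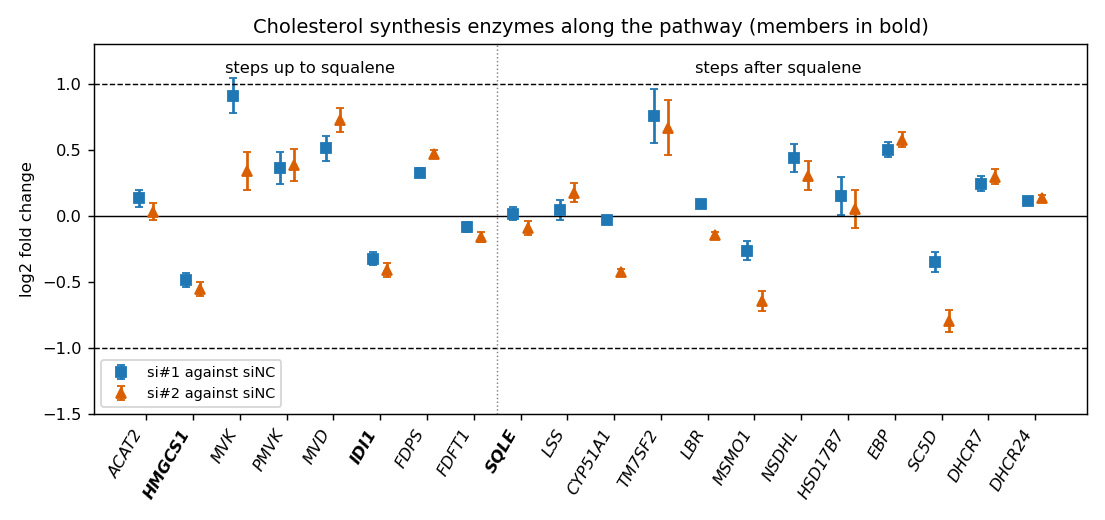
Log2 fold change against siNC (vertical axis) of 20 enzymes of cholesterol synthesis in the order of the route, for si#1 (squares) and si#2 (triangles) with 95% counting intervals as bars, dashed lines at 2-fold, and a dotted line between the steps up to and after squalene. HMGCS1 (-0.49 and -0.55) and IDI1 (-0.32 and -0.41) lie below 0 among enzymes on both sides of it, such as MVD (0.51 and 0.72).

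Of the 2 members that make fatty acids, SCD was lower with both siRNAs and FASN differed in direction between them. SCD introduces the double bond into saturated fatty acids and lies on chromosome 10 at 100347233 to 100364826. Its reads in siNC, si#1 and si#2 numbered 10912, 7597 and 6377, or log2 fold changes of -0.54 (-0.58 to -0.50) and -0.74 (-0.78 to -0.69). FASN, the synthase that builds palmitate, lies on chromosome 17 at 82078338 to 82098236 and had 7248, 6783 and 7861 reads in siNC, si#1 and si#2. Its log2 fold changes were -0.14 (-0.18 to -0.09) and 0.15 (0.10 to 0.20), on opposite sides of siNC, and with the trend in length and GC content removed, -0.21 and -0.05. The ratio of SCD to FASN in TPM was 2.43, 1.81 and 1.31 in siNC, si#1 and si#2.

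Of 27 genes of fatty acid synthesis, elongation and desaturation, 24 were listed, with medians of 0.01 with si#1 and 0.06 with si#2. ELOVL7, an elongase, rose with both siRNAs (1.01 and 1.26) from 97 reads in siNC to 204 and 249, at no more than 0.90 TPM. It was the 1 gene of the list past 2-fold with both, and none fell with both. Of all listed genes, 2.53% rose and 3.51% fell with both. With si#1, ELOVL7 was under 2-fold on log2(TPM + 1) (0.42) and with a pseudocount of 10 (0.95). The same held with a mean of at least 100 reads (0.97) and in protein-coding genes alone (0.90). FADS3, a gene of the desaturase family, had 441, 698 and 941 reads in siNC, si#1 and si#2, at 0.62 with si#1, and rose with si#2 (1.07). ACACA, the cytosolic acetyl-CoA carboxylase that feeds FASN, had 10756, 7382 and 7562 reads (-0.56 and -0.47), whereas ACACB, its mitochondrial relative, was at 0.55 and 0.66. ACLY, which supplies cytosolic acetyl-CoA, was at -0.22 and -0.39. Among the lower genes were thus ACACA and SCD, at either side of FASN in the route.

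Genes of sterol uptake and transport, which share control with the members, had medians of 0.16 with si#1 and 0.07 with si#2. Of these, 0 of 9 listed passed 2-fold with either siRNA, beside 12.0% (si#1) and 12.7% (si#2) of all listed genes. NPC2, whose product binds cholesterol in the lysosome, had 2350, 3627 and 3489 reads in siNC, si#1 and si#2. Its log2 fold changes were 0.58 (0.50 to 0.65) with each siRNA. TMEM97 was at -0.34 and -0.29. With si#1 and si#2 alike, these 2 genes lay on opposite sides of siNC.

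**Figure D4:**
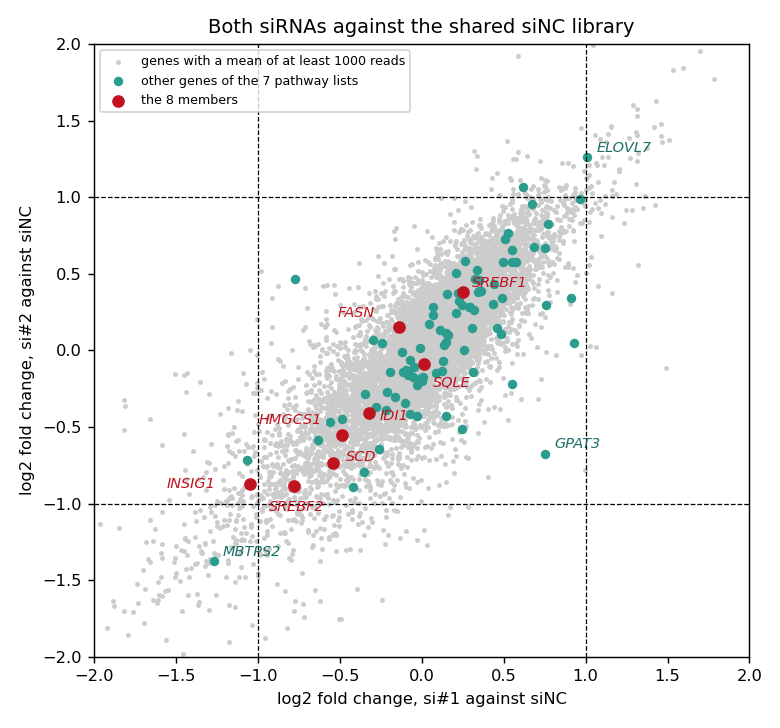
Log2 fold change with si#1 (horizontal axis) against that with si#2 (vertical axis) for 8688 of the 8708 deeply covered genes (grey; the other 20 lie beyond the axes), the other genes of the 7 pathway lists (green) and the 8 members (red), with dashed lines at 2-fold and axes that end at 2 in either direction. Both axes share the siNC library, INSIG1 lies at -1.05 and -0.87, SREBF1 at 0.25 and 0.38, and MBTPS2 (-1.27 and -1.38) lies past both lower lines.

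Between si#1 and si#2 themselves, no member differed 2-fold, where 8.23% of all listed genes and 0.563% of the deeply covered genes did. FASN was the member with the largest difference, 0.29 higher with si#2 than with si#1 (95% interval 0.24 to 0.33). SCD was 0.19 lower with si#2 and INSIG1 0.18 higher, and the interval of SREBF2 (-0.24 to 0.02) included no difference.

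The pattern of INSIG1 over both fold changes was most like those of TAF4 (-1.06 and -0.86), WIZ (-1.02 and -0.88) and MYCBP2 (-1.08 and -0.89), by Euclidean distance among 11092 protein-coding genes averaging 100 reads or more. For SREBF2 the nearest were RPS6KA2 (-0.78 and -0.89), ZC3H7A (-0.77 and -0.87) and MKLN1 (-0.78 and -0.87). The likeness rests on 3 libraries, and 26 genes lay within 0.1 of INSIG1 and 64 within 0.1 of SREBF2.

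The members kept their side of siNC under most ways of processing. Under 9 other ways, INSIG1 ranged from -1.07 to -0.95 with si#1 and from -0.91 to -0.80 with si#2, and SREBF2 from -0.90 to -0.55 and from -1.08 to -0.63. The smallest values of both came from quantile-normalized log2(TPM + 1), on which INSIG1 was under 2-fold. SCD, HMGCS1 and IDI1 stayed below 0 and SREBF1 stayed above it with each siRNA. With both siRNA libraries pooled against siNC, edgeR's quasi-likelihood test called 0 of the 16463 genes after Benjamini-Hochberg adjustment at 0.05. Without adjustment, 2958 genes, 5 members among them, were below 0.05. DESeq2's Wald test called 9.95% of the genes with an adjusted p, INSIG1 (adjusted p = 0.00145), SREBF2 (0.0207) and SCD (0.0220) among them. Both fits take the spread from the siRNA libraries and apply it to siNC, which had none of its own.

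**Figure D5:**
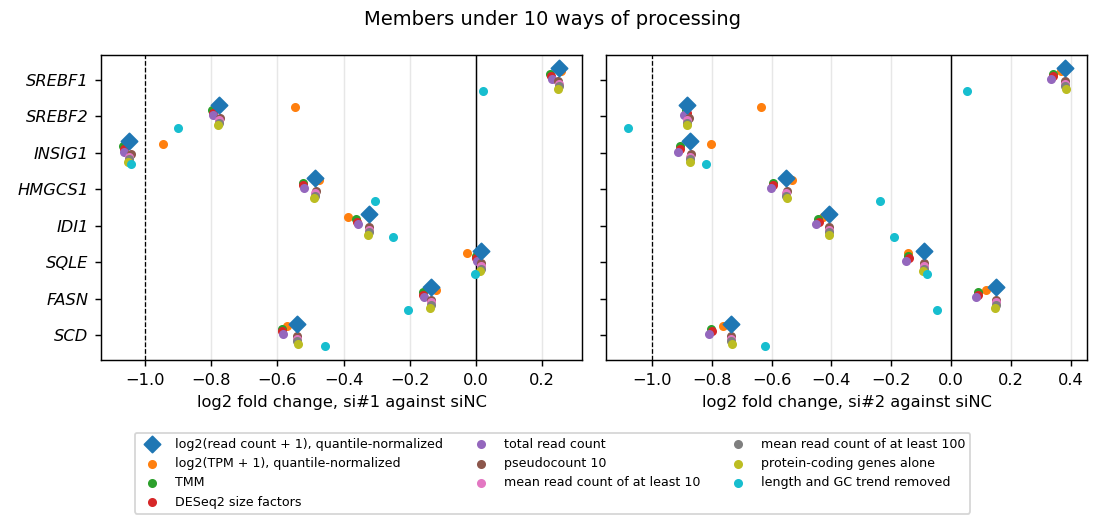
Log2 fold change of each member against siNC (horizontal axes; si#1 on the left, si#2 on the right) under 10 ways of processing, with diamonds for quantile-normalized read counts, circles for the others and a dashed line at 2-fold. The trend in length and GC content moves SREBF1 to 0.02 and 0.05, and SREBF2 lies closest to 0 on log2(TPM + 1), at -0.55 and -0.63.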

How the data were processed

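Total RNA of AsPC-1 in 3 libraries, 1 per condition, was analysed. They came from a stranded kit that depletes ribosomal RNA. Per the paper's methods and the labels, paired reads were aligned to GRCh38 by HISAT2 and known genes assembled by StringTie. For neither program is a version given in the sources used here. Deposited were read counts per gene, not normalized, and TPM computed by the authors, for 16463 genes, each of which had 1 read or more in all 3 libraries. The authors' normalized log2 values equal quantile-normalized log2(read count + 1) within 5e-09. Columns headed FPKM hold the read counts. The authors' fold changes and volumes were not used, and 18 columns of per-sample values (15 on a second sheet) were mapped to no sample.

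Raw TPM ratios to siNC lie lower than the normalized fold changes, by a median of -0.14 (si#1) and -0.22 (si#2) on the log2 scale, so fold changes were taken from counts. Intervals are 95% Clopper-Pearson intervals of 2 counts, shifted by the normalization. Calls and fits were run on simulated counts, with the same change in both siRNA libraries. Their spread was set and not measured between cultures, so these runs cannot show how far calls would hold in other cultures. Length and GC content came from canonical GENCODE 44 transcripts (15270 genes), and their trend was a polynomial of degree 3. Gene positions came from RefSeq (16437 genes matched by ID).

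The members and gene lists were chosen with earlier results of these data known. Named were all members, LINC00941, the landmarks FDFT1, ACACA and ACLY, list genes past 2-fold with both siRNAs and then the next largest by the smaller of both changes (mean of at least 50 reads), up to 3 a list, and the 3 nearest genes to INSIG1 and SREBF2. Some genes that this rule names are not reported here. The genes of the marker lists are examples, and MBTPS1, SCAP, INSIG2, SYVN1, GPAT3 and the genes with opposite directions were named after their values were seen.

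Alternatives were quantile-normalized log2(TPM + 1), TMM, DESeq2 size factors, total count, a pseudocount of 10, a mean of at least 10 or 100 reads, protein-coding genes alone, a 1.5-fold threshold, the trend removed, and pooled fits by edgeR and DESeq2. Software was Python 3.11.15, numpy 2.4.6, pandas 2.3.3, scipy 1.17.1 and matplotlib 3.10.9, and edgeR 4.0.16 and DESeq2 1.42.0 in R 4.3.3.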

Additional observations from a re-analysis of the deposited data

Results flagged for a closer look

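Of the 96 listed genes of the pathway lists, FASN and 7 others lay on opposite sides of siNC with si#1 and si#2. For each, both counting intervals, which cover counting error alone, were clear of no change. The share of all listed genes that did so was not counted, so the 8 have no background beside them. With 1 library per siRNA the difference between the siRNAs was not tested. The log2 difference of si#2 from si#1 was 0.29 for FASN, 0.29 for the membrane protein gene PGRMC1 and 0.37 for the lipoprotein receptor gene SCARB1. It was -0.23 for LBR, a sterol reductase of the nuclear envelope, -0.26 for the ubiquitin ligase gene RNF139, -0.57 for the phosphatidate phosphatase gene LPIN2 and -0.76 for SOAT1, which esterifies cholesterol. The largest of the 8 was GPAT3, an acyltransferase of glycerolipid synthesis, at -1.43, with 9724, 16656 and 5978 reads in siNC, si#1 and si#2.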

How the results depend on the processing

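With 1 library per condition, no spread between cultures could be estimated, no library could be left out of a comparison, and no paired analysis was possible because the conditions share no replicates. The count of members past 2-fold was 1 with si#1, 0 with si#2 and 0 with both. On log2(TPM + 1) it was 0 with si#1, and with the length and GC trend removed it was 1 with si#2, SREBF2. At 1.5-fold it was 2 with si#1 and 3 with si#2, and 2 (INSIG1 and SREBF2) with both, where 16.2% of all genes passed. Of the 8708 deeply covered genes, 551 were lower and 360 higher by 1.5-fold with both. DESeq2's pooled fit called 3 members. Of the 96 listed pathway genes, 2 (MBTPS2 and ELOVL7) passed 2-fold with both siRNAs. Beside this, 6.04% of all listed genes and 2.35% of the deeply covered genes passed. The count was 0 on log2(TPM + 1) and 1 (MBTPS2) with a pseudocount of 10. It was also 1 (MBTPS2) when normalized anew over genes averaging 100 reads or more, or over protein-coding genes alone. With the trend removed it was 3 (SYVN1 in addition), and at 1.5-fold it was 12, where 16.2% of all genes passed. Of 144 member values under the other settings, 27 left their counting interval, 12 of them with the trend removed. Over all genes, both siRNAs passed 2-fold together in 994, against 191 on log2(TPM + 1), 387 with a mean of at least 100 reads, 544 in protein-coding genes alone and 576 with a pseudocount of 10.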

Other observations

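Of 23 genes of glycerolipid synthesis, which uses the fatty acids that FASN and SCD provide, 20 were listed. Their medians were 0.19 with si#1 and 0.05 with si#2. None passed 2-fold with both siRNAs, beside 6.04% of all listed genes and 2.35% of the deeply covered genes. DGAT2, which makes the last bond of triglycerides, had 625, 1256 and 1242 reads in siNC, si#1 and si#2 (log2 fold changes 0.96 and 0.99). LPIN3 was at 0.68 and 0.68 and AGPAT2, an acyltransferase, at 0.55 and 0.58. These 3 were named for the size of their change with both siRNAs, which share the siNC library.

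Of 12 genes for the sterol-sensing LXR factors, sterol efflux and esterification, 8 were listed, with medians of 0.30 (si#1) and 0.21 (si#2). None passed 2-fold with either siRNA, beside 12.0% (si#1) and 12.7% (si#2) of all listed genes. The LXR genes differed in direction. NR1H2, with 18.7 TPM in siNC, was at 0.29 and 0.28, whereas NR1H3, with 94.4 TPM in siNC, was at -0.09 and -0.13. LCAT, at most 139 reads in any library, was at 0.67 and 0.96, and the transporter gene ABCG1, with 175, 218 and 276 reads in siNC, si#1 and si#2, was at 0.26 (-0.03 to 0.56) and 0.58 (0.30 to 0.86). With si#1 the interval of ABCG1 included no change.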
